A study of Homo sapiens with 16 samples.

Results

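DND41 is an established human cell line of T-cell acute lymphoblastic leukaemia, known for an active NOTCH1 gene and for expression of the homeobox gene TLX3. Its response to PD-0332991 (palbociclib), an inhibitor of the kinases CDK4 and CDK6, was taken from 4 of 16 Affymetrix Human Genome U133 Plus arrays. The 4 arrays were chosen by their titles, 2 of DND41 cells given the solvent DMSO and 2 of DND41 cells given 1 uM PD-0332991, all for 15 h. Cells of every group grew in RPMI medium with serum, glutamine supplement and antibiotics. The other 12 arrays hold the leukaemia lines CEM, CUTL1 and Jurkat in the same treatments, 2 arrays for each line and treatment, and serve here for comparison. All values come from 1 line with 2 arrays a group, and the labels do not say whether replicates were separate cultures. The p-values below rest on the spread between replicate arrays, pooled over the groups of all 16 arrays, which could be technical.

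D-type cyclins activate CDK4 and CDK6, which phosphorylate the retinoblastoma protein RB and its relatives p107 and p130. Unphosphorylated RB holds E2F transcription factors in check, and phosphorylation frees them to switch on genes for DNA synthesis. Thymocytes and T-cell leukaemias rely on cyclin D3 and CDK6 in particular, and cells whose RB stays unphosphorylated stop before S phase. Genes of G2 and mitosis are switched on later in the cycle by the MuvB complex with MYBL2 and FOXM1, and the same complex with p107 or p130 keeps them off in resting cells. In RNA from a whole culture, fewer cells in a phase of the cycle and less RNA per cell cannot be told apart.

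The identity of the line was checked first. TLX3 read 101 and 134 with DMSO and 87.6 and 122 with PD-0332991, as intensities, while the 12 arrays of the other lines lay between 8.45 and 12.2. All 13 T-lineage markers were bright enough to be tested, and their summed intensity was 38320 and 38930 with DMSO and 48080 and 45580 with PD-0332991. Of B cell markers, CD79A read 1396 and 1303 with DMSO and 2063 and 1677 with PD-0332991. CR2, BLK (322.3 and 340.1 with DMSO, 341.5 and 408.1 with PD-0332991) and CD79B (119.3 and 143.1, then 110.7 and 108.8) were also present. So were PECAM1 (1086 and 1071, then 1298 and 1414) and COL1A1 (204.8 and 204.8, then 178 and 207) of the fibroblast and endothelial markers. Markers below the level of 29.5 used here to set dim genes aside included the defining B cell marker MS4A1, the myeloid markers LYZ and CD14 and the epithelial marker EPCAM. Of 8 B cell markers 5 were bright enough to test and 2, CD79A and CR2, were called higher (1 without DMSO replicate 2 or PD-0332991 replicate 1). Of 9 NK markers 4 were tested and 1 called higher, of 7 erythroid markers 5 and 1, and 0 were called of 5 tested among 10 fibroblast and endothelial, 4 among 8 epithelial and 1 among 8 myeloid markers. The summed B cell markers were 2193 and 2102 with DMSO and 3012 and 2690 with PD-0332991, and their part in other results was not tested. The 2 PD-0332991 arrays were the pair of replicates farthest apart among 8 pairs, with r = 0.993 across genes and a gap of 0.14 log2 units in the median gene, against 0.07 to 0.13 elsewhere. Their median intensities of 31.19 and 29.97 were the highest of all 16 arrays (28.5 to 29.9 in the other lines), and the 18S ribosomal probe sets read 12.45 and 12.75 against 13.21 and 13.26 with DMSO. The 5′ minus 3′ value of actin probe sets, a sign of RNA integrity, was -0.59 and -0.73 against -1.01 in DMSO replicate 2 and nearly the same in DMSO replicate 1 (-1.74 to -0.51 in the other lines). The part of these shifts in the results was not tested. With so few arrays, their number sets how precise any value can be.

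In the values as deposited PD-0332991 lowered more genes than it raised, a balance that turned under quantile and cyclic loess scaling. The large changes were almost all falls. Of 12937 genes tested, limma called 3906 (30.2%) at a Benjamini-Hochberg adjusted p below 0.05. The drug raised 1559 (12.1%) and lowered 2347 (18.1%). Changes of at least 2-fold were called in 322 genes (2.49%), 21 upward (0.162%) and 301 downward (2.33%). The balance of small changes depended on how the arrays were scaled: centring each array on its median gave 936 higher (7.24%) and 2935 lower calls (22.7%), quantile normalization 2220 (17.2%) and 1788 (13.8%), and cyclic loess 1987 (15.4%) and 1872 (14.5%). With the same sign under all 4 scalings, 2645 genes (20.4%) were called, 924 higher (7.14%) and 1721 lower (13.3%). Without DMSO replicate 1 the calls numbered 2330, without DMSO replicate 2 2233 and without PD-0332991 replicate 1 2408, but 4091 without PD-0332991 replicate 2. Where 1 array is left out, here and below, its group keeps 1 array, which is assumed to vary like the other groups. The median change of all genes was 0.01 on the log2 scale, and -0.06 after median centring. The values of the 2 treatments did not overlap in 8539 genes (66%). With 2 arrays a group many genes without a change would also separate in this way, so that share does not measure the response.

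The deepest fall was that of CCNE2, which encodes cyclin E2, the partner of CDK2 at the entry into S phase. Its intensity was 1716 and 1852 with DMSO and 135 and 147 with PD-0332991, and it fell by 3.66 (SE 0.20, adjusted p = 4.62e-07) on the log2 scale, as are all changes and differences below. GINS2, a subunit of the replicative helicase, went from 1753 and 1982 to 221 and 235 (-3.03, SE 0.08). That is its brightest probe set, and its other 2, both dimmer, stood at -1.21 and 0.23. In both genes the drug-treated arrays lay far below either control array. The highest rise was that of the histone gene H2AC6, at 332 and 372 with DMSO and 1927 and 2308 with PD-0332991, a rise by 2.58 (SE 0.14, adjusted p = 4.62e-07). TP53INP1, a stress-induced regulator of autophagy, read 330.1 and 299.9 with DMSO and 1440.5 and 1453 with PD-0332991 and rose by 2.20 (SE 0.21). The 14 largest rises and the 14 largest falls were chosen among genes called under all 4 scalings whose arrays did not overlap between the treatments.

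**Figure D1:**
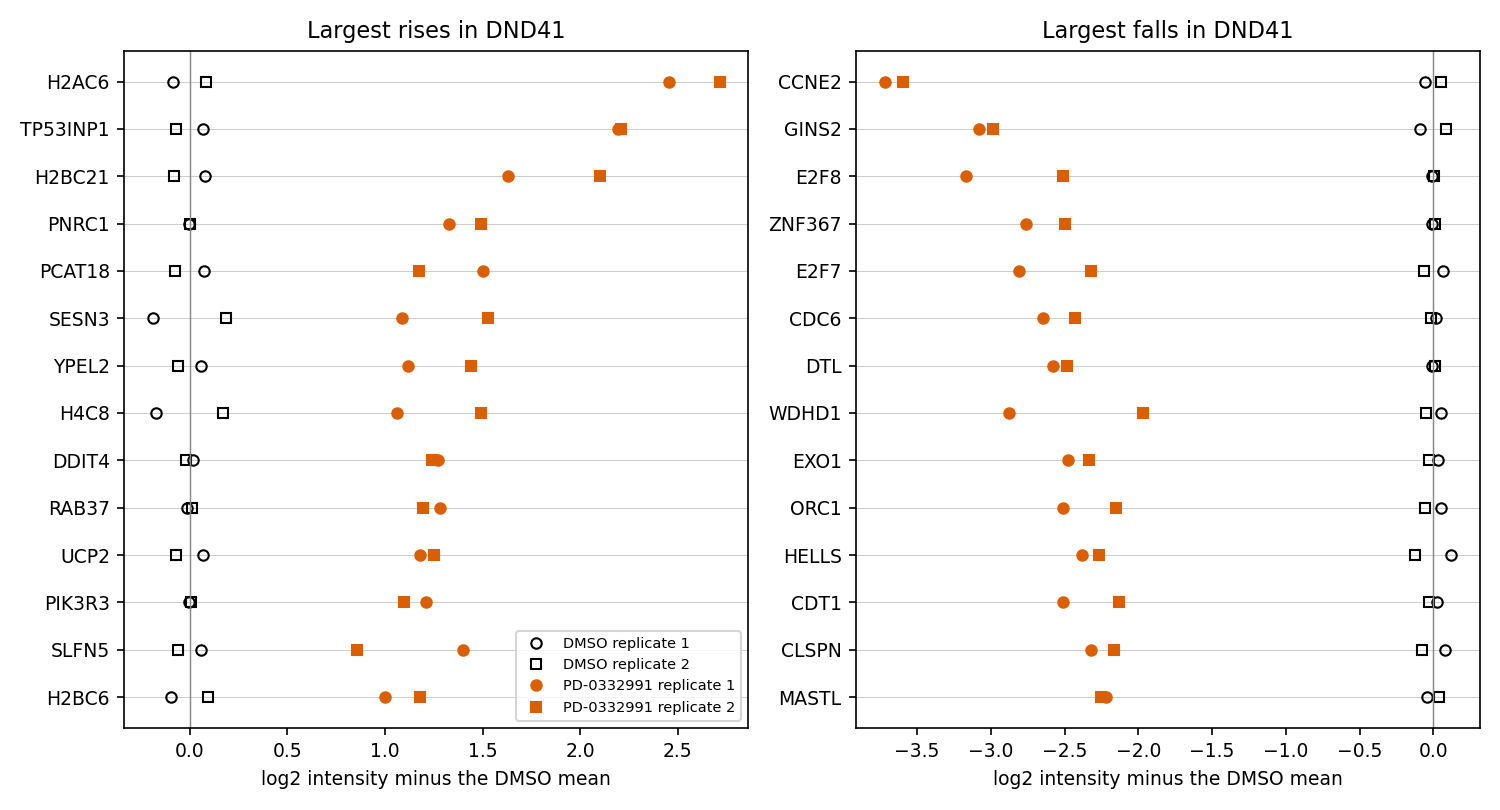
Log2 intensity of each DND41 array minus the DMSO mean (x axis) for the 14 largest rises (left) and 14 largest falls (right), 1 row per gene. Open black symbols are DMSO arrays and filled orange symbols PD-0332991 arrays, circles for replicate 1 and squares for replicate 2. In each row the orange symbols stand apart from the black ones, as the choice of genes required. Their mean is -3.66 for CCNE2 and 1.09 for H2BC6.

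Within the network of cyclin D, CDK4, CDK6 and RB, 19 of 29 genes tested fell and 4 rose, and the list median was -0.62. Among all genes 18.1% were lower and 12.1% higher, so the share that rose was near that of all genes. The rises numbered 2 without DMSO replicate 2 and 2 without PD-0332991 replicate 1. The E2F genes that are themselves E2F targets fell together: E2F1, an activator, by 1.16 (SE 0.13), the activator E2F2 by 1.89 (SE 0.12), and the repressors E2F7 (-2.56, SE 0.18) and E2F8 (-2.84, SE 0.20). The values of E2F8 were 529 and 535 with DMSO and 59.3 and 93.5 with PD-0332991. Cyclin genes of S phase entry and S phase fell as well, CCNE1 by 1.72 (SE 0.13) and CCNA2 by 1.23 (SE 0.12), as did CDC25A, the phosphatase that activates CDK2 (-1.61, SE 0.09). E2F3 stood at -0.38 and was not called (adjusted p = 0.0756), and its other probe set stood at 0.03. TFDP2 was among the rises, at 0.37 (SE 0.07).

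By their brightest probe sets the targets of the drug moved apart. CDK4 read 4235 and 4347 with DMSO and 2780.0 and 3043 with PD-0332991 and fell by 0.56 (SE 0.07, adjusted p = 0.000208). CDK6, the main kinase of the pair in T cells, read 7339.9 and 6496 with DMSO and 9102 and 8473 with PD-0332991 and rose by 0.35 (SE 0.08, adjusted p = 0.0101). CDK6 had 7 probe sets above the level of 29.5, 6 of them positive, which ran from -0.22 to 0.35. Its call was lost without DMSO replicate 2, at 0.26 (adjusted p = 0.0983), and without PD-0332991 replicate 1, at 0.30 (adjusted p = 0.0702). CCND3, the cyclin D gene of thymocytes, rose by 0.32 (SE 0.08), but stood at 0.31 (adjusted p = 0.0541) and 0.23 (adjusted p = 0.0758) without the same arrays. CCND2 read 18.7 and 19.2 with DMSO and 30.7 and 38.2 with PD-0332991, so both DMSO arrays lay below the dim level of 29.5, and rose by 0.85 (SE 0.15).

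The pocket protein genes changed unequally. RBL1, which encodes p107 and is an E2F target, read 319 and 319 with DMSO and 80.4 and 75.3 with PD-0332991 and fell by 2.04 (SE 0.20, adjusted p = 2.4e-05). RB1, the gene of RB itself, read 3141 and 2778 with DMSO and 1694 and 2172 with PD-0332991, without overlap, and fell by 0.62 (SE 0.13, adjusted p = 0.00412), while the change was 0.07 in CEM, -0.11 in CUTL1 and 0.27 in Jurkat. The difference of DND41 from the mean of those lines was -0.70 (SE 0.15, adjusted p = 0.0139), and it was not called without DMSO replicate 1 (-0.61, adjusted p = 0.0762) or without PD-0332991 replicate 1 (-0.52, adjusted p = 0.0702). RBL2, which encodes p130, read 838 and 765 with DMSO and 635 and 783 with PD-0332991, an overlap of the groups, and was not called (-0.18, adjusted p = 0.403). Among inhibitors of the kinases, CDKN2D (p19) fell by 0.50 (SE 0.07), with a difference from the other lines of -0.57 (SE 0.09, adjusted p = 0.00345). CDKN2A, which encodes p16, read 1695 and 1695 with DMSO and 1391 and 1386 with PD-0332991 (-0.29, adjusted p = 0.134). CDKN1B, which encodes p27, was not called at -0.39 (adjusted p = 0.0569), but was at -0.64 (adjusted p = 0.00253) without PD-0332991 replicate 2. CDKN1A, the gene of p21, fell by 0.64 (SE 0.16), and was not called without DMSO replicate 2 (-0.35, adjusted p = 0.106) or PD-0332991 replicate 1 (-0.56, adjusted p = 0.0811).

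Genes that license origins and build the replication fork fell almost without exception. Of 53 tested, 49 were lower, none was higher and 4 were not called, against 18.1% lower among all genes, with a median of -1.21. CDC6, which loads the helicase at origins, read 716 and 701 with DMSO and 113 and 132 with PD-0332991 and fell by 2.54 (SE 0.10). DTL, the substrate receptor that marks licensing factors for degradation at forks, read 2816 and 2853 with DMSO and 474 and 508 with PD-0332991 (-2.53, SE 0.07). The licensing factor CDT1 (-2.32, SE 0.13), the origin recognition subunit ORC1 (-2.33, SE 0.16), the fork protein WDHD1 (-2.42, SE 0.29), CDC45 of the helicase (-2.12, SE 0.08) and CLSPN, which signals stalled forks (-2.24, SE 0.10), followed. All of these but CDC45 were among the 14 largest falls, whose choice required that the arrays of the 2 treatments not overlap. The arrays of CDC45 did not overlap either. The members not called, named after their values were seen, were ORC2 (-0.19), ORC4 (-0.20), ORC5 (-0.05) and RECQL4 (-0.48), of which ORC2, ORC4 and ORC5 are subunits of the origin recognition complex.

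Promoters of genes with deep falls are shown because E2F factors are the step through which RB acts on transcription. RefSeq promoters, 250 bases before to 50 after the gene start in GRCh38.p14, were matched by symbol for 10440 of the 12937 genes. They were searched on both strands for the E2F-like words TTTCCCGC, TTTGGCGC, TTTCGCGC and TTTGCCGC; overlaps with the other words searched were not counted apart. Such a word stood in 3.33% of 27305 promoters in all, in 5.22% of promoters of genes tested, in 2.64% of 1252 promoters of genes called higher and in 49 of 249 (19.7%) of genes called lower at least 2-fold. Of the replication list, 21 of 46 promoters (45.7%) held one, and of the 14 largest falls 8 of 12. GINS2 lies at chr16:85688905-85689204 on the minus strand, CDC6 at chr17:40287629-40287928 on the plus strand and DTL at chr1:212035498-212035797 on the plus strand. The 3 were chosen after values and matches were seen, capitals mark the E2F-like word on either strand, and a match is a description and not a binding site.
GINS2: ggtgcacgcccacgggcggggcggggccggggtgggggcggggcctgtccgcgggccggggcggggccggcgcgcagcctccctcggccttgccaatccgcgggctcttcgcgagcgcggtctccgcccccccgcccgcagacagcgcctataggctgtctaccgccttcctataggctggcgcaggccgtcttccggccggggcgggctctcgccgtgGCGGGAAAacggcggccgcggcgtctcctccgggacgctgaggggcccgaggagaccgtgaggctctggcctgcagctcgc
CDC6: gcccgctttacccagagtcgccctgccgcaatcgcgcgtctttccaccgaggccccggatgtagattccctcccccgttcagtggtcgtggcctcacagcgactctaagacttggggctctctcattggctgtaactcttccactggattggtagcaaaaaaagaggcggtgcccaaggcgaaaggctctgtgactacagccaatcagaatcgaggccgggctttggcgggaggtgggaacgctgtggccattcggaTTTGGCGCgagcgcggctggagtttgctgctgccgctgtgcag
DTL: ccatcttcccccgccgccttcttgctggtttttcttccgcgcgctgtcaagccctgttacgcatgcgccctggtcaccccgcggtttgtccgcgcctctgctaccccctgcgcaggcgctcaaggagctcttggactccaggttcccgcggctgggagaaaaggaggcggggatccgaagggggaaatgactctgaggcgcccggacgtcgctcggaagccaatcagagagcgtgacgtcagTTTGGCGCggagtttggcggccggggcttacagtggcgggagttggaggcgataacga

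Most enzymes that supply nucleotides fell. Of 26 genes tested 18 were lower, against 18.1% of all genes, none higher and 8 not called, with a median of -0.49. RRM2, the S phase subunit of ribonucleotide reductase, read 5459 and 5587 with DMSO and 1549.6 and 1346 with PD-0332991 and fell by 1.94 (SE 0.08). TK1, thymidine kinase, stood at -2.17 (SE 0.09) and TYMS, thymidylate synthase, at -1.08 (SE 0.06). Purine synthesis genes, named after their values were seen, were partly called: PPAT (-0.52), GMPS (-0.54), PAICS (-0.39) and GART (-0.38) fell, while PFAS (-0.15), ADSL (-0.12), ATIC (0.03), IMPDH1 (0.06) and IMPDH2 (0.07) were not called. The other members not called were SHMT2 (-0.06), CAD (-0.05) and CTPS2 (0.32). Of 25 genes of DNA repair and the replication checkpoint 22 fell, with a median of -1.12. The deepest fall was that of the nuclease gene EXO1, at 442 and 424 with DMSO and 77.9 and 85.8 with PD-0332991 (-2.40, SE 0.14), and the checkpoint kinase gene CHEK1 (-2.06), named after its values were seen, also fell. The helicase gene BLM (-1.31, SE 0.08) and FANCI of the Fanconi pathway (-1.48, SE 0.09) were named for their p-values and not for the size of their falls. The checkpoint kinase genes ATR (-0.08) and ATM (0.13) and the repair gene XRCC3 (-0.29), named after their values were seen, were not called.

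Genes of G2 and mitosis fell less evenly. Of 79 tested, 68 were lower, none higher and 11 not called, against 18.1% lower and 12.1% higher among all genes, with a median of -0.80. MELK, a kinase of proliferating cells, read 1748 and 1769 with DMSO and 771 and 782 with PD-0332991 (-1.18, SE 0.07), and the centromere genes CENPM and CENPU stood at -1.59 (SE 0.09) and -1.35 (SE 0.07). MASTL, the Greatwall kinase that protects mitotic phosphorylation, read 211 and 223 with DMSO and 46.6 and 45.4 with PD-0332991, one of the 14 largest falls (-2.24, SE 0.22), and both its treated arrays lay far below its controls. Among the regulators of the late genes, named after their values were seen, MYBL2 (-1.12, SE 0.08) and FOXM1 (-1.12, SE 0.09) fell, as did MKI67, which encodes the proliferation antigen Ki-67 (-1.23, SE 0.13).

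The 11 mitotic genes that were not called were picked out with their values known. UBE2C, which passes ubiquitin to the anaphase-promoting complex, read 4499 and 4024 with DMSO and 4095 and 3770.2 with PD-0332991 (-0.11, adjusted p = 0.304). CDC20, an activator of that complex, read 2680.0 and 2505 with DMSO and 2466 and 2299 with PD-0332991 (-0.12, adjusted p = 0.297), and the securin gene PTTG1 read 5552 and 5531 with DMSO and 5828 and 5418 with PD-0332991 (0.02, adjusted p = 0.839). The groups overlapped for UBE2C and PTTG1 and did not for CDC20. The others were CENPF (-0.19), CENPA (-0.28), TPX2 (-0.21), ASPM (-0.24), GTSE1 (-0.17), CDC25B (0.06), CKS2 (-0.07) and TOP2A (-0.41). In 10 of the 11, all but CKS2, the DND41 change was higher than the mean of the other lines by limma's test of that difference. Examples were UBE2C by 0.74 (adjusted p = 0.00164), TPX2 by 0.70 (adjusted p = 0.0041) and CDC20 by 0.54 (adjusted p = 0.00729). The 11 were set apart by the same DND41 arrays that this test uses, so their count is no separate result. In the whole list 41 of 79 were called higher, against 5.04% of all genes. UBE2C fell by 0.38 in CEM, by 0.64 in CUTL1 and by 1.53 in Jurkat.

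The word TTTGAA, called CHR-like here after the element that MuvB binds, stood on either strand in 15.4% of all promoters, 9.93% of those of genes tested and 44 of 68 (64.7%) of the mitotic list, against 1 of 46 (2.17%) of the replication list. The example shown is KIF23, a kinesin of cell division chosen after its values were seen, at chr15:69414099-69414398 on the plus strand, with the CHR-like word in capitals. KIF23 read 471 and 409 with DMSO and 147 and 153 with PD-0332991 and fell by 1.55 (SE 0.13).
KIF23: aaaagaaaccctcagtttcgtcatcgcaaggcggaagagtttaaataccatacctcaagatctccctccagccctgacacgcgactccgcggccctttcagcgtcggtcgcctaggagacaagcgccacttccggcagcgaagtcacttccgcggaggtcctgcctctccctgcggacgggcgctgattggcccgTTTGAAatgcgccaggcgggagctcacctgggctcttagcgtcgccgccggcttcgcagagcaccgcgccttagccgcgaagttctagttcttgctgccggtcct

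For many replication and mitosis genes the change was less negative in DND41 than in the mean of the other lines. The medians of the replication list were -1.34 in CEM, -1.91 in CUTL1 and -1.80 in Jurkat, against -1.21 in DND41, and those of the mitotic list -0.50, -1.23 and -1.42, against -0.80. By the difference of the DND41 change from the mean of the others, 29 of 53 replication genes were called higher in DND41 and 1 lower, and 41 of 79 mitotic genes higher and 1 lower, while 5.04% of all genes were called higher and 10.9% lower. The pair called lower, named after their values were seen, were ORC4 (-0.28) and BUB3 (-0.52), and neither was called without DMSO replicate 1 (-0.32 (adjusted p = 0.0988) and -0.48 (adjusted p = 0.106)), DMSO replicate 2 (-0.23 (adjusted p = 0.189) and -0.55 (adjusted p = 0.0781)) or PD-0332991 replicate 1 (-0.21 (adjusted p = 0.198) and -0.37 (adjusted p = 0.134)). Among the clearest differences were those of DTL (0.74, SE 0.09, adjusted p = 0.00115), RRM2 (0.73, SE 0.09, adjusted p = 0.00128), ASF1B, a histone chaperone (0.99, SE 0.09, adjusted p = 0.000765), and CENPU (0.77, SE 0.09, adjusted p = 0.00103). The order was not the same against every line. Without Jurkat in the comparison 12 mitotic genes were called higher and 22 replication genes, and without CUTL1 26 and 18. Mitotic genes called lower numbered 3 without CUTL1, 2 without Jurkat and 5 without PD-0332991 replicate 2. Without DMSO replicate 1 the higher counts were 23 and 22, without DMSO replicate 2 22 and 20 and without PD-0332991 replicate 1 24 and 24. Under the other 3 scalings they ran from 31 to 43 for mitosis and from 22 to 37 for replication.

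As a group, histone genes did not follow the other S phase genes down. Replication-dependent histone genes are normally transcribed in S phase, and their main transcripts end in a stem-loop in place of a poly(A) tail. Of 23 tested 8 rose and 4 fell, against 12.1% higher and 18.1% lower among all genes, and the median was 0.24. The share that fell was near that of all genes. H2AC6 is described above. H2BC6 read 293 and 333 with DMSO and 624 and 708 with PD-0332991 and rose by 1.09 (SE 0.14, adjusted p = 0.00023). H2BC5 read 497 and 498 with DMSO and 859 and 1011 with PD-0332991 (0.91, SE 0.12), H2BC12 2744 and 2613 with DMSO and 5269.9 and 5057 with PD-0332991 (0.95, SE 0.08). In all of them both treated arrays exceeded both controls, which the choice of H2AC6 and H2BC6 among the largest rises required. H2BC21 read 28.4 and 25.5 with DMSO and 83.2 and 115 with PD-0332991 and rose by 1.87 (SE 0.22), from control levels below 29.5. H4C8 rose by 1.28 (SE 0.21), from 59.7 and 75.8 to 140.5 and 189. The remaining rises were H1-2 (0.53, SE 0.15) and H2BC15 (0.53, SE 0.17), named after their values were seen. H2BC15 was called under 1 of the 4 scalings and not without DMSO replicate 1 (0.39, adjusted p = 0.218), PD-0332991 replicate 1 (0.66, adjusted p = 0.0525) or PD-0332991 replicate 2 (0.41, adjusted p = 0.163), and H1-2 not without DMSO replicate 1 (0.42, adjusted p = 0.143) or PD-0332991 replicate 1 (0.49, adjusted p = 0.106).

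Calls were uneven across the histone families, each with few genes tested, beside 12.1% higher and 18.1% lower among all genes. Of 7 H2B genes 5 rose and none fell, with a median of 0.91, and of 5 H2A genes 1 rose. Of 4 H3 genes 3 fell, H3C2 (-0.85, SE 0.15), H3C7 (-0.84, SE 0.22) and H3C3 (-0.36, SE 0.08), with a median of -0.60, and of 4 H4 genes 1 rose. H1-4 fell by 0.59 (SE 0.19). Without DMSO replicate 2 a single histone gene (1) was lower, with H3C7 at -0.72 (adjusted p = 0.0944), H3C3 at -0.30 (adjusted p = 0.0527) and H1-4 at -0.39 (adjusted p = 0.241), and H1-4 stood at -0.50 (adjusted p = 0.17) without PD-0332991 replicate 1 and -0.68 (adjusted p = 0.0504) without PD-0332991 replicate 2. The number of rises was 6 to 8 without each array. Histone genes are near-identical copies, and 9 of the 23 were measured by probe sets with the suffixes _x_at or _s_at, which can match several of them, including 5 of the 8 that rose. Which copy changed is therefore uncertain.

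Some histone genes also separated DND41 from the other lines. The median of the list was -0.09 in CEM, -0.33 in CUTL1 and -0.26 in Jurkat. In 9 of 23 genes the change was called higher in DND41 than in the mean of the others, and in none lower. Of all genes 5.04% were called higher and 10.9% lower by this difference. H2BC6 had a change of -0.22 in CEM, -0.31 in CUTL1 and -0.36 in Jurkat, and its difference was 1.39 (SE 0.17, adjusted p = 0.00128). H4C8 had a change of 0.17 in CEM, -0.11 in CUTL1 and -0.62 in Jurkat (difference 1.46, SE 0.24, adjusted p = 0.00483), H2BC5 of 0.06 in CEM, -0.15 in CUTL1 and -0.45 in Jurkat (difference 1.08, SE 0.14, adjusted p = 0.00157), and the related copy H2BC12L, which read 841 and 920.4 with DMSO and 1826 and 1794 with PD-0332991, of 0.06 in CEM, -0.06 in CUTL1 and -0.36 in Jurkat (difference 1.16, SE 0.12, adjusted p = 0.000934). H2AC6 rose in all 4 lines, by 2.29 in CEM, 1.30 in CUTL1 and 0.93 in Jurkat, and its difference was 1.08 (SE 0.17, adjusted p = 0.0038). H2BC21 rose in all 4 as well, by 1.64 in CEM, 1.27 in CUTL1 and 0.98 in Jurkat. Its difference of 0.57 (SE 0.26, adjusted p = 0.152) was not called. So did H2BC12, by 0.72 in CEM, 0.30 in CUTL1 and 0.40 in Jurkat (difference 0.47, SE 0.10, adjusted p = 0.0115). The count of 9 was 7 to 8 without each DND41 array, 8 to 9 without each other line and 8 to 9 under the other scalings. Without _x_at and _s_at probe sets 4 of 15 were called higher.

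**Figure D2:**
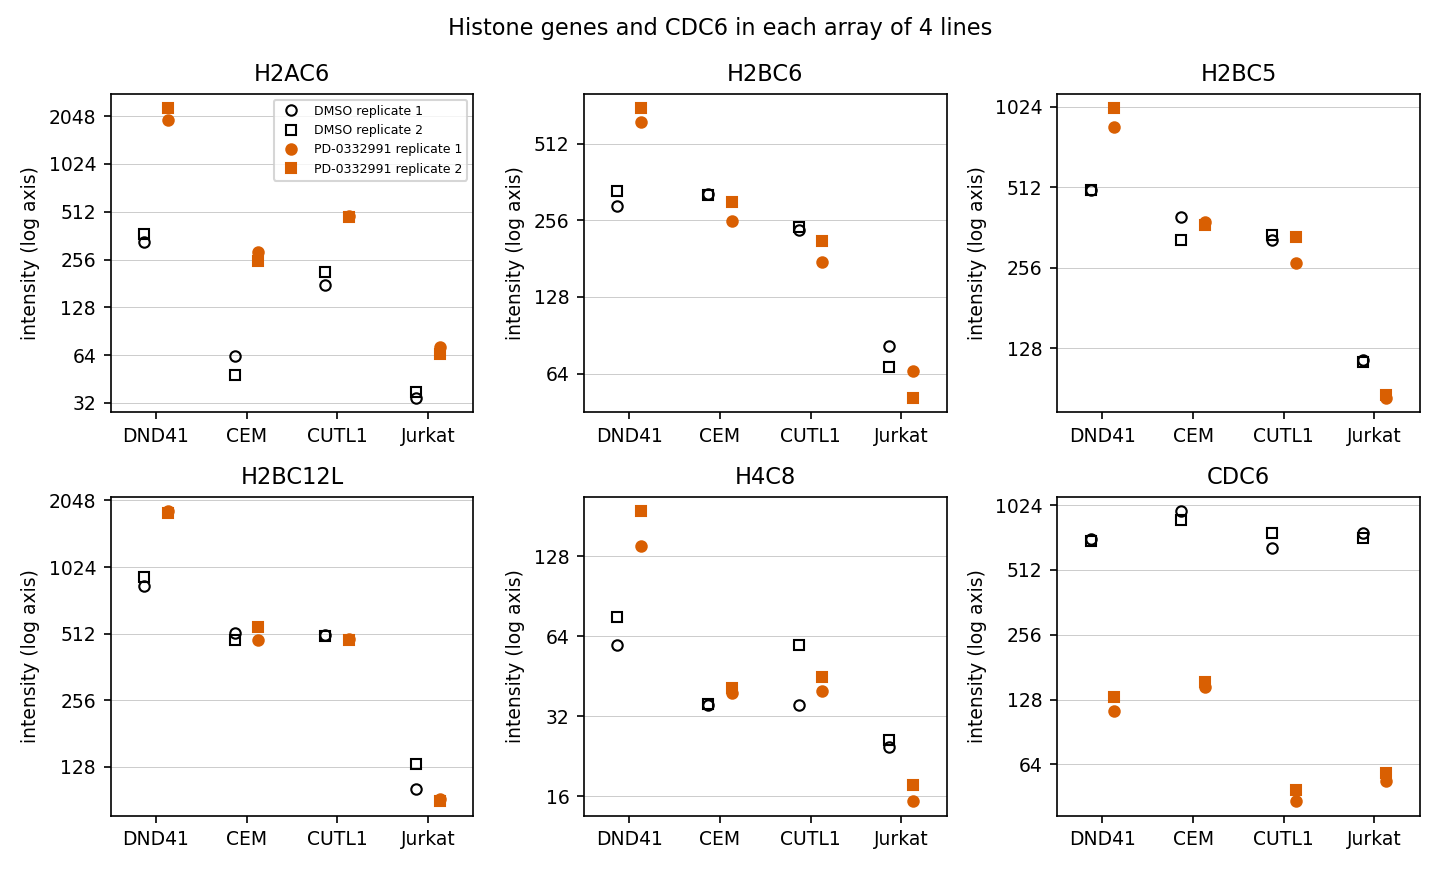
Intensity (log axis) of 5 histone genes and of CDC6 in every array of DND41, CEM, CUTL1 and Jurkat. Open black symbols are DMSO and filled orange symbols PD-0332991 arrays, circles for replicate 1 and squares for replicate 2. H2BC6, H2BC5, H2BC12L and H4C8 rise in DND41, while CDC6 falls in each line.

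The promoters of 3 histone genes that rose are shown for the octamer ATTTGCAT, the word that OCT1 reads in H2B promoters. It stood on either strand in 1.8% of all promoters, in 1.25% of those of genes tested and in 10 of 22 (45.5%) of the histone list. Of those 10 genes 4 rose and none fell, and of the 12 without it 4 rose and 4 fell. Among all genes 12.1% were higher and 18.1% lower. All 10 are H2A or H2B genes and the 4 that fell are H1 or H3 genes, so octamer and histone family cannot be told apart here. The H2B genes H2BC5 and H2BC15 lack the octamer and rose as well. H2AC6 lies at chr6:26123922-26124221 on the plus strand, H2BC6 at chr6:26183511-26183810 on the plus strand and H2BC12 at chr6:27146809-27147108 on the minus strand, in GRCh38.p14, and capitals mark the octamer. They were chosen after values and matches were seen.
H2AC6: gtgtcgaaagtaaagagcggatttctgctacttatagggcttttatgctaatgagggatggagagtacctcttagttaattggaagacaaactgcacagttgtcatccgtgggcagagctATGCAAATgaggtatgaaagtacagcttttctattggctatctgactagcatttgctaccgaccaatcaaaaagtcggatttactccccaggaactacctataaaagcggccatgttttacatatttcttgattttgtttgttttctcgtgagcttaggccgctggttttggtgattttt
H2BC6: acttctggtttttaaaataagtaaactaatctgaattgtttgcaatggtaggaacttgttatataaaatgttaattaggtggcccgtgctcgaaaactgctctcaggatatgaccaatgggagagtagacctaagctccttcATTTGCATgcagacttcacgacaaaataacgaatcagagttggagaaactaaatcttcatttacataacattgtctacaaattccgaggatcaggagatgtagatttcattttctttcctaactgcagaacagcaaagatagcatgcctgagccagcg
H2BC12: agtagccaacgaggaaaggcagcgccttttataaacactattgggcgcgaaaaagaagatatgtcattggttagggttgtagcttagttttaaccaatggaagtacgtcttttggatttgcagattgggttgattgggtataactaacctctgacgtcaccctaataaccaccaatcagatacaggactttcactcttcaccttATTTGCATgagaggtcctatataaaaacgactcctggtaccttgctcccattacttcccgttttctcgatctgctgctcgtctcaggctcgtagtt

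Genes of chromatin modifiers changed in both directions. Of 32 tested 9 were lower, 6 higher and 17 not called, against 18.1% lower and 12.1% higher among all genes, with a median of -0.02 that was 0.05 and 0.03 under quantile and cyclic loess scaling. UHRF1, which brings the maintenance methyltransferase to new DNA, read 4706 and 4255 with DMSO and 1234 and 1415 with PD-0332991 (-1.76, SE 0.09), and the remodeller HELLS read 2238 and 1888 with DMSO and 395 and 428 with PD-0332991 (-2.32, SE 0.21). Genes of chaperones of newly made histones fell, CHAF1A by 1.67 (SE 0.09) and ASF1B by 1.27 (SE 0.08). All 3 core genes of the polycomb complex PRC2 were lower, EZH2 (-1.19, SE 0.12), EED (-0.91, SE 0.11) and SUZ12 (-0.53, SE 0.08). On the other side the lysine demethylase gene KDM5B read 119 and 130.2 with DMSO and 254 and 259.6 with PD-0332991 and rose by 1.04 (SE 0.07), with KDM7A (0.69), KDM4A (0.47) and KDM4B (0.45). The PRC2 and demethylase genes were picked out with their values known. The number of chromatin genes called higher was 4 without DMSO replicate 1 and without DMSO replicate 2, and 4 with arrays centred on their medians, where 13 were lower.

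The other genes among the 14 largest rises have varied roles. DDIT4, an inhibitor of mTORC1, read 1759 and 1719.7 with DMSO and 4193 and 4117 with PD-0332991 and rose by 1.26 (SE 0.06, adjusted p = 7.37e-08), with close replicates in both groups. SESN3, which also restrains mTORC1, read 17.2 and 22.3 with DMSO and 41.7 and 56.6 with PD-0332991 and rose by 1.31 (SE 0.24), from control levels below 29.5. PNRC1, a nuclear coregulator, read 413 and 414 with DMSO and 1037 and 1164 with PD-0332991 (1.41, SE 0.11), YPEL2 56.0 and 51.5 with DMSO and 117 and 146 with PD-0332991 (1.28, SE 0.17). UCP2, a mitochondrial carrier, read 1739 and 1579 with DMSO and 3750.1 and 3951 with PD-0332991 (1.22, SE 0.07), PIK3R3, a regulatory subunit of PI3K, 340.2 and 343 with DMSO and 791 and 729.6 with PD-0332991 (1.15, SE 0.08). The small GTPase gene RAB37 (1.24, SE 0.06), SLFN5 (1.13, SE 0.16) and the non-coding gene PCAT18 (1.34, SE 0.21) complete the 14. The choice of the 14 required that the arrays of the 2 treatments not overlap. Outside that set, named after their values were seen, CTSO, a protease gene (1.04), TSC22D1 (1.01), LTB, which encodes lymphotoxin beta (1.02), and ERVFRD-1 (1.06) also rose at least 2-fold.

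In the list of FOXO factors and quiescence genes 17 of 35 rose and 3 fell, against 12.1% higher and 18.1% lower among all genes, and the median was 0.30. YPEL5 (1.02, SE 0.07) and the repressor of the G1 to S transition HBP1 (0.77, SE 0.08) followed PNRC1. The 3 that fell were INSR, the insulin receptor gene (-0.32, SE 0.10), ZFP36L1, an RNA-binding regulator of decay (-0.56, SE 0.15), and SLFN11 (-0.48, SE 0.11). The call of INSR was lost without DMSO replicate 1 (-0.32, adjusted p = 0.0985), DMSO replicate 2 (-0.31, adjusted p = 0.117) and PD-0332991 replicate 2 (-0.22, adjusted p = 0.156), and that of ZFP36L1 without DMSO replicate 1 (-0.59, adjusted p = 0.0527), DMSO replicate 2 (-0.53, adjusted p = 0.076) and PD-0332991 replicate 1 (-0.49, adjusted p = 0.0877). SLFN11 stood at -0.41 (adjusted p = 0.0608) without DMSO replicate 2 and -0.42 (adjusted p = 0.0519) without PD-0332991 replicate 1. Rises numbered 11 without DMSO replicate 1, and 12 after median centring. The falls numbered 1 without DMSO replicate 1 or PD-0332991 replicate 1, 0 without DMSO replicate 2 and 5 without PD-0332991 replicate 2. KLF2, a transcription factor of resting T cells named after its values were seen, read 74.4 and 57.3 with DMSO and 39.4 and 60.7 with PD-0332991 and was not called (-0.42, adjusted p = 0.118), while its change was 0.59 in CEM, 0.42 in CUTL1 and 0.82 in Jurkat.

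Among 23 brakes on PI3K and mTORC1 6 rose and 3 fell, beside 12.1% and 18.1% of all genes, and the median of 0.05 turned to -0.02 after median centring. The falls were PHLPP1, a phosphatase that acts on AKT, at 72.2 and 72.0 with DMSO and 29.8 and 36.5 with PD-0332991 (-1.13, SE 0.14), PHLPP2 (-0.38, SE 0.09) and PRKAA1, the catalytic subunit of AMPK, at 465 and 454 with DMSO and 207 and 258 with PD-0332991 (-0.99, SE 0.19). PRKAA1 had a change of 0.48 in CEM, -0.08 in CUTL1 and 0.31 in Jurkat, with a difference of -1.23 (SE 0.22, adjusted p = 0.00729). PHLPP2 stood at -0.33 (adjusted p = 0.0568) without DMSO replicate 1. Its other, dimmer probe set stood at 0.49, and the mean of both at 0.06.

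Many genes of the T cell receptor and of thymocytes rose by small amounts. Of 57 tested 23 rose and 4 fell, against 12.1% and 18.1% of all genes, and the median was 0.19. LAT, the adaptor that relays receptor signals, read 234 and 234 with DMSO and 337 and 362 with PD-0332991 (0.58, SE 0.06), SELPLG, a ligand of selectins, 274 and 277 with DMSO and 444 and 404 with PD-0332991 (0.62, SE 0.07), and ICAM3, an adhesion molecule, 1255 and 1237 with DMSO and 1847 and 1903 with PD-0332991 (0.59, SE 0.07). Each was higher in both treated arrays than in either control. The 4 that fell were the chemokine receptor genes CCR7, at 64.0 and 63.4 with DMSO and 28.9 and 35.9 with PD-0332991 (-0.98, SE 0.15), and CXCR4, at 6340.2 and 6414 with DMSO and 3767 and 5058 with PD-0332991 (-0.55, SE 0.11), with RUNX3 (-0.38, SE 0.09) and the phosphatase gene PTPN22 (-0.30, SE 0.08). Of 3 RUNX3 probe sets above the dim level, 2 had this sign. CXCR4 fell by 0.33 without PD-0332991 replicate 1, RUNX3 stood at -0.30 (adjusted p = 0.0937) without DMSO replicate 2, and PTPN22 at -0.25 (adjusted p = 0.103) and -0.24 (adjusted p = 0.0916) without DMSO replicate 2 and PD-0332991 replicate 1. The rises numbered 12 without DMSO replicate 2 and 15 without PD-0332991 replicate 1, and 16, 31 and 31 with centring, quantile and cyclic loess scaling. Falls numbered 2 without DMSO replicate 2 and 7 without PD-0332991 replicate 2.

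For several T cell genes the change was lower in DND41 than in the other lines. Of all genes 10.9% were called lower by this difference and 5.04% higher. Of the 57, 11 had a change called lower in DND41 than in the mean of the others and 1, CD99, called higher (0.28, and not without DMSO replicate 1, 0.30 (adjusted p = 0.0709), DMSO replicate 2, 0.27 (adjusted p = 0.0834), or PD-0332991 replicate 1, 0.30 (adjusted p = 0.0513)). In 9 of the 11 the change within DND41 was not called. Examples named after their values were seen were CD28, a costimulatory receptor, at 0.01 in DND41 and 0.49 in the others (difference adjusted p = 0.00955), CD8B, a coreceptor chain, at -0.22 and 0.37 (adjusted p = 0.0178), and LY9 at 0.00 and 0.83 (adjusted p = 0.0104). Without PD-0332991 replicate 1 their differences were -0.40 (adjusted p = 0.0517), -0.41 (adjusted p = 0.0817) and -0.75 (adjusted p = 0.0567). Those of CD28 and CD8B were -0.46 (adjusted p = 0.0547) and -0.57 (adjusted p = 0.0776) without DMSO replicate 1, and those of CD8B and LY9 -0.60 (adjusted p = 0.0644) and -0.81 (adjusted p = 0.0517) without DMSO replicate 2. The count of 11 was 2 without DMSO replicate 1, 5 without DMSO replicate 2, 4 without PD-0332991 replicate 1 and 7 without CEM in the comparison, but 19 after median centring.

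Among 15 transcription factors of T-cell leukaemia 3 rose and 2 fell, beside 12.1% and 18.1% of all genes. TAL1, a basic helix-loop-helix factor, read 332 and 300.5 with DMSO and 174 and 183 with PD-0332991 and fell by 0.82 (SE 0.14), while its change was -0.76 in CEM, -0.21 in CUTL1 and 0.50 in Jurkat. The difference of -0.67 (SE 0.17, adjusted p = 0.023) was not called without DMSO replicate 1 (-0.60, adjusted p = 0.103), DMSO replicate 2 (-0.74, adjusted p = 0.0609) or PD-0332991 replicate 1 (-0.64, adjusted p = 0.0931). MEF2C (0.48, SE 0.11), BCL11B (0.39, SE 0.12) and ETV6 (0.27, SE 0.06) rose. Of the probe sets above the dim level, 1 of 2 for MEF2C, 4 of 5 for ETV6 and 2 of 3 for TAL1 had the sign given. BCL11B, which is outside the naming rule, stood at 0.39 (adjusted p = 0.0977) without DMSO replicate 1, 0.39 (adjusted p = 0.102) without DMSO replicate 2 and 0.21 (adjusted p = 0.226) without PD-0332991 replicate 1, and without each of these arrays 2 factors of the list rose and 1 fell. PHF6, a tumour suppressor, fell by 0.46 (SE 0.16), a call held under 2 of 4 scalings and lost without DMSO replicate 1 (-0.43, adjusted p = 0.156), DMSO replicate 2 (-0.49, adjusted p = 0.12) and PD-0332991 replicate 1 (-0.35, adjusted p = 0.227). The line's own factor TLX3 was not called (-0.17, adjusted p = 0.529), nor was MYB (0.01, adjusted p = 0.961), and both overlapped between treatments.

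In the NOTCH1 pathway 8 of 28 genes tested rose and 1 fell, against 12.1% and 18.1% of all genes, with a median of 0.08. HES1, a direct NOTCH1 target, read 2011 and 2018 with DMSO and 3479 and 2986 with PD-0332991 and rose by 0.68 (SE 0.10, adjusted p = 0.000574). CR2, another target in T-cell leukaemia, read 259 and 223 with DMSO and 382 and 394 with PD-0332991 (0.69, SE 0.14), and the cytokine receptor gene IL7R 3193 and 3437 with DMSO and 4682 and 4423 with PD-0332991 (0.46, SE 0.11). HES1, CR2 and IL7R were higher in both treated arrays. IL7R was not called without DMSO replicate 1 (0.41, adjusted p = 0.0717) or PD-0332991 replicate 1 (0.42, adjusted p = 0.0628). NOTCH3, a receptor, rose by 0.50 (SE 0.12) and stood at 0.40 (adjusted p = 0.0813) without DMSO replicate 2. NOTCH1 itself was not called (0.22, adjusted p = 0.173), and DTX1 stood at 0.08. HEY1 fell by 0.43 (SE 0.13), and not without DMSO replicate 1 (-0.26, adjusted p = 0.214) or PD-0332991 replicate 1 (-0.34, adjusted p = 0.156). Rises numbered 4 without DMSO replicate 1, 3 without DMSO replicate 2 and 3 without PD-0332991 replicate 1.

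MYC rose while 16 genes of the MYC and ribosome list fell. MYC read 2898 and 3121 with DMSO and 4485 and 4319 with PD-0332991 and rose by 0.55 (SE 0.10, adjusted p = 0.00202), higher in both treated arrays. Of 42 genes of MYC and ribosome biogenesis 16 fell and 4 rose, against 18.1% and 12.1% of all genes, and the median was -0.16. The other 3 rises were the MYC antagonists MXI1 (0.53, SE 0.07), MXD1 (0.52, SE 0.17) and MNT (0.40, SE 0.10), which share its partner MAX. Of 2 MNT probe sets above the dim level, 1 had this sign. The calls of MXD1 were lost without each of the 4 arrays (adjusted p = 0.0831, 0.166, 0.159 and 0.062), and MNT stood at 0.39 (adjusted p = 0.0665) without DMSO replicate 2 and 0.23 (adjusted p = 0.0681) without PD-0332991 replicate 2. LYAR, a nucleolar factor, read 2626 and 2437 with DMSO and 1646 and 1724 with PD-0332991 (-0.59, SE 0.08) and POLR1E, a subunit of RNA polymerase I, 393 and 388 with DMSO and 257 and 268 with PD-0332991 (-0.57, SE 0.08). Named after their values were seen, the ribosome assembly genes NIP7 (-0.93, SE 0.20), UTP15 (-0.95, SE 0.15) and RRN3, which starts ribosomal RNA transcription (-0.84, SE 0.15), fell in DND41 and not in the mean of the other lines (0.16, 0.03 and 0.31). Their differences had adjusted p-values of 0.0132, 0.00752 and 0.0033. NIP7 stood at -0.67 (adjusted p = 0.0501) without PD-0332991 replicate 1, and its difference at -1.08 (adjusted p = 0.0609) without DMSO replicate 1, -1.10 (adjusted p = 0.0553) without DMSO replicate 2 and -0.83 (adjusted p = 0.0712) without PD-0332991 replicate 1. In all 8 of the 42 were called lower than in the other lines, against 10.9% of all genes. The number was 14 after centring, 6 after quantile scaling (with 2 higher), 5 after cyclic loess (with 3 higher), 4 with the replicate number as a block (with 1 higher), 5 without CUTL1 (with 4 higher), 7 without CEM or Jurkat, and 3 without DMSO replicate 1, DMSO replicate 2 or PD-0332991 replicate 1. Rises numbered 2 without DMSO replicate 2 or PD-0332991 replicate 2. Falls numbered 9 without PD-0332991 replicate 1, and 21, 13 and 13 under centring, quantile and cyclic loess scaling.

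Of 26 p53 targets 7 rose and 8 fell, against 12.1% and 18.1% of all genes, with a median of 0.06 that turned to -0.02 after median centring. DDB2, a repair factor, read 336 and 371 with DMSO and 132 and 162 with PD-0332991 (-1.27, SE 0.11), and the nuclease gene AEN read 406 and 435 with DMSO and 226 and 234 with PD-0332991 (-0.87, SE 0.08), both lower in both treated arrays, in contrast to TP53INP1. Falls numbered 5 without DMSO replicate 2 and 4 without PD-0332991 replicate 1. Of 17 BCL2 family genes 4 rose and 2 fell, beside 12.1% and 18.1% of all genes, and after median centring 2 rose and 4 fell. BCL2, the anti-apoptotic founder of the family, read 658 and 639.6 with DMSO and 948 and 945 with PD-0332991 and rose by 0.54 (SE 0.10, adjusted p = 0.00159), with replicates nearly equal. In the other lines its change was -0.54 in CEM, -0.97 in CUTL1 and -0.09 in Jurkat, and the difference was 1.08 (SE 0.11, adjusted p = 0.000912). BCL2L1, which encodes BCL-XL, rose by 0.32 (SE 0.08) and was at 0.21 (adjusted p = 0.109) without DMSO replicate 2. MCL1 rose by 0.22 (SE 0.07), a call lost without DMSO replicate 1 (0.21), DMSO replicate 2 (0.22) and PD-0332991 replicate 2 (0.14). Its other probe sets above the dim level stood at -0.051, -0.142 and -0.0043, and those below it at 0.21 and 0.095. BCL2L12 (-0.36, SE 0.08) and the pro-apoptotic gene BID (-0.25, SE 0.07) fell, and BID was at -0.21 (adjusted p = 0.123) and -0.22 (adjusted p = 0.0884) without DMSO replicate 2 and PD-0332991 replicate 1. The family's rises numbered 2 without DMSO replicate 1 or DMSO replicate 2, and its falls 1 without DMSO replicate 2 or PD-0332991 replicate 1 and 4 without PD-0332991 replicate 2. Under quantile scaling 6 family genes rose and none fell, and with centring 2 rose and 4 fell.

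Several immediate early genes, which report signalling through ERK, changed otherwise in DND41 than in the other lines. EGR1, a zinc finger factor induced by ERK, read 949.6 and 934 with DMSO and 489 and 451 with PD-0332991 and fell by 1.00 (SE 0.17, adjusted p = 0.00133). The 6 DMSO arrays of the other lines lay between 36.2 and 100.5, below every DND41 array, and there its change was 0.06 in CEM, 0.64 in CUTL1 and 1.48 in Jurkat. The difference was -1.73 (SE 0.20, adjusted p = 0.00107). FOSL2, an AP-1 subunit, read 58.1 and 54.2 with DMSO and 29.9 and 31.2 with PD-0332991 (-0.88, SE 0.11), and its difference was -0.88 (SE 0.12, adjusted p = 0.00276). SPRED1, an inhibitor of RAS signalling named after its values were seen, read 50.3 and 48.6 with DMSO and 19.4 and 27.8 with PD-0332991 and fell by 1.09 (SE 0.22), with a difference of -1.28 (SE 0.25, adjusted p = 0.0104). DUSP6, the phosphatase that ERK induces against itself, read 8614 and 7851 with DMSO and 5710.4 and 8064 with PD-0332991, and CD69, an early activation antigen, 132 and 149 with DMSO and 69.1 and 117 with PD-0332991. Neither was called in DND41 (-0.28 and -0.64), and both were picked out with their values known. The mean of the other lines was 1.02 and 1.08, with differences of -1.29 (SE 0.19, adjusted p = 0.00298) and -1.72 (SE 0.27, adjusted p = 0.0041).

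Across the list of 30 immediate early and ERK feedback genes 3 rose and 6 fell in DND41, against 12.1% and 18.1% of all genes. By the difference from the other lines 8 were called lower and 2 higher, against 10.9% and 5.04% of all genes. The rises were TNFAIP3, which restrains NF-kB (0.63, SE 0.08), IER3 (0.46, SE 0.07) and MCL1. The 2 higher differences were 0 without DMSO replicate 1, DMSO replicate 2 or PD-0332991 replicate 1, with the replicate block, and without CUTL1 or Jurkat in the comparison. The count of 8 was 5 without DMSO replicate 1 and 6 to 9 under the other leave-outs and scalings. The list median of -0.05 lay between -0.12 and 0.00 under the other scalings. SPRED1's difference was -1.26 (adjusted p = 0.0547) without DMSO replicate 1 and -1.02 (adjusted p = 0.0589) without PD-0332991 replicate 1. Rises numbered 5 without PD-0332991 replicate 1.

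Stress and amino acid genes under ATF4 had no common direction in DND41. Of 34 tested 4 rose and 4 fell, beside 12.1% and 18.1% of all genes. After median centring 2 rose and 5 fell, and under quantile or cyclic loess scaling 7 rose and 2 fell. The median was 0.00, against -0.20 in CEM, -0.06 in CUTL1 and -0.33 in Jurkat. SLC7A11, the cystine importer, read 516 and 522 with DMSO and 797 and 647 with PD-0332991 and rose by 0.47 (SE 0.09, adjusted p = 0.00336), while its change was -0.21 in CEM, -0.29 in CUTL1 and -1.13 in Jurkat, a difference of 1.01 (SE 0.11, adjusted p = 0.000934). PSAT1, an enzyme of serine synthesis, read 2939.7 and 3009.6 with DMSO and 1479.6 and 1703 with PD-0332991 and fell by 0.91 (SE 0.09). EDEM1, a factor of protein disposal, rose by 0.49 (SE 0.08). Rises numbered 2 without DMSO replicate 1, DMSO replicate 2 or PD-0332991 replicate 2, and falls 2 without DMSO replicate 2. In 12 of the 34 the change was called higher than in the other lines and in 1, PSAT1, lower, against 5.04% and 10.9% of all genes, and in 9 of the 12 the change within DND41 was not called. The PSAT1 difference stood at -0.47 (adjusted p = 0.0739) without DMSO replicate 1, -0.44 (adjusted p = 0.0827) without DMSO replicate 2 and -0.35 (adjusted p = 0.102) without PD-0332991 replicate 1. The count of 12 was 4 without Jurkat in the comparison, 4 without DMSO replicate 1, 5 without DMSO replicate 2, 5 without PD-0332991 replicate 1 and 7 with the replicate number as a block.

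Of all genes 18.1% were lower and 12.1% higher, the background for 3 metabolic lists. Of 26 genes of sterol and fatty acid synthesis 9 fell and 1 rose, among them ACAT2, the thiolase at the start of sterol synthesis (-0.73, SE 0.09), the sterol isomerase gene EBP (-0.46, SE 0.06) and, upward, the sterol reductase gene TM7SF2 (0.82, SE 0.11). Falls numbered 5 to 8 without each array, with 6 without DMSO replicate 1, 5 without DMSO replicate 2 and 6 without PD-0332991 replicate 1. Under quantile and cyclic loess scaling 4 rose and 7 fell. Of 24 glycolysis genes 5 fell and 1 rose, and after median centring 8 fell and none rose. PDK1, a kinase that restrains pyruvate oxidation (-0.61, SE 0.16), and ENO2, an enolase (-0.50, SE 0.07), fell and ALDOC, an aldolase (0.58, SE 0.18), rose. PDK1 stood at -0.58 (adjusted p = 0.075) without DMSO replicate 1, -0.64 (adjusted p = 0.0565) without DMSO replicate 2 and -0.60 (adjusted p = 0.066) without PD-0332991 replicate 1. Without DMSO replicate 1, DMSO replicate 2 or PD-0332991 replicate 1 there were 1 to 2 glycolysis genes lower and ALDOC was not called (adjusted p = 0.121, 0.109 and 0.139), nor without PD-0332991 replicate 2 (adjusted p = 0.0648). Of 30 genes of the respiratory chain SDHC rose (0.39, SE 0.08), though its brightest probe set without a shared suffix stood at -0.24, and CYCS, cytochrome c, and NDUFS1 fell (-0.31 (SE 0.07) and -0.37 (SE 0.08)), and CYCS stood at -0.26 (adjusted p = 0.0601) without DMSO replicate 1 and NDUFS1 at -0.35 (adjusted p = 0.0508) without DMSO replicate 2.

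Some lysosome, interferon, antigen presentation and cytokine receptor genes rose by small amounts. Of all genes 12.1% were higher and 18.1% lower. Of 41 lysosome and autophagy genes 15 rose and 4 fell, with a median of 0.18, for example the protease gene TPP1 (0.58, SE 0.07), NPC2, which carries cholesterol (0.50, SE 0.08), and MAP1LC3B of the autophagosome (0.47, SE 0.07), while the sulfatase gene ARSB read 127 and 100.1 with DMSO and 33.9 and 44.5 with PD-0332991 and fell by 1.54 (SE 0.34). GLA fell by 0.25 (SE 0.08), a call held under 2 of 4 scalings. The 15 became 6 without DMSO replicate 1, 10 without DMSO replicate 2 and 10 without PD-0332991 replicate 1, and the 4 falls became 1, 1, 2 and 2 without DMSO replicate 1, DMSO replicate 2, PD-0332991 replicate 1 and PD-0332991 replicate 2. Of 47 interferon-stimulated genes 16 rose, among them the exonuclease gene ISG20 (0.88, SE 0.11), and 4 fell, HERC5, the ligase for ISG15, at 588 and 587 with DMSO and 194 and 270.5 with PD-0332991 (-1.36, SE 0.12), PLSCR1 (-0.55, SE 0.10), USP18 (-0.48, SE 0.12) and EIF2AK2 (-0.51, SE 0.13). Without DMSO replicate 1 USP18 stood at -0.39 (adjusted p = 0.0827) and EIF2AK2 at -0.43 (adjusted p = 0.0841), and without PD-0332991 replicate 1 at -0.40 (adjusted p = 0.0768) and -0.40 (adjusted p = 0.0918). The 16 became 10 without DMSO replicate 1, 6 without DMSO replicate 2 and 9 without PD-0332991 replicate 2. Falls numbered 2 without DMSO replicate 1 or PD-0332991 replicate 1.

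Of 22 antigen presentation genes 9 rose and 1 fell, against 12.1% and 18.1% of all genes, with HLA-E, a class I gene, at 2141 and 2199 with DMSO and 3674 and 3332 with PD-0332991 (0.69, SE 0.07), HLA-B at 0.55 (SE 0.10) and HLA-C at 0.40 (SE 0.07). HLA genes are similar in sequence, so their probe sets may share signal. The 1 that fell, the peptidase gene ERAP2 (-0.56, SE 0.19), was not called without any 1 of the 4 arrays (adjusted p = 0.0816, 0.218, 0.124 and 0.125). Of 29 cytokine receptor and JAK-STAT genes 9 rose and none fell, among them the signal transducers STAT5A, at 975 and 988 with DMSO and 1466 and 1536 with PD-0332991 (0.61, SE 0.07), and STAT6 (0.58, SE 0.08), and the common gamma chain gene IL2RG (0.35, SE 0.07). Both STAT genes were higher in both treated arrays. The 9 became 6 without DMSO replicate 1 and 6 without PD-0332991 replicate 1.

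**Figure D3:**
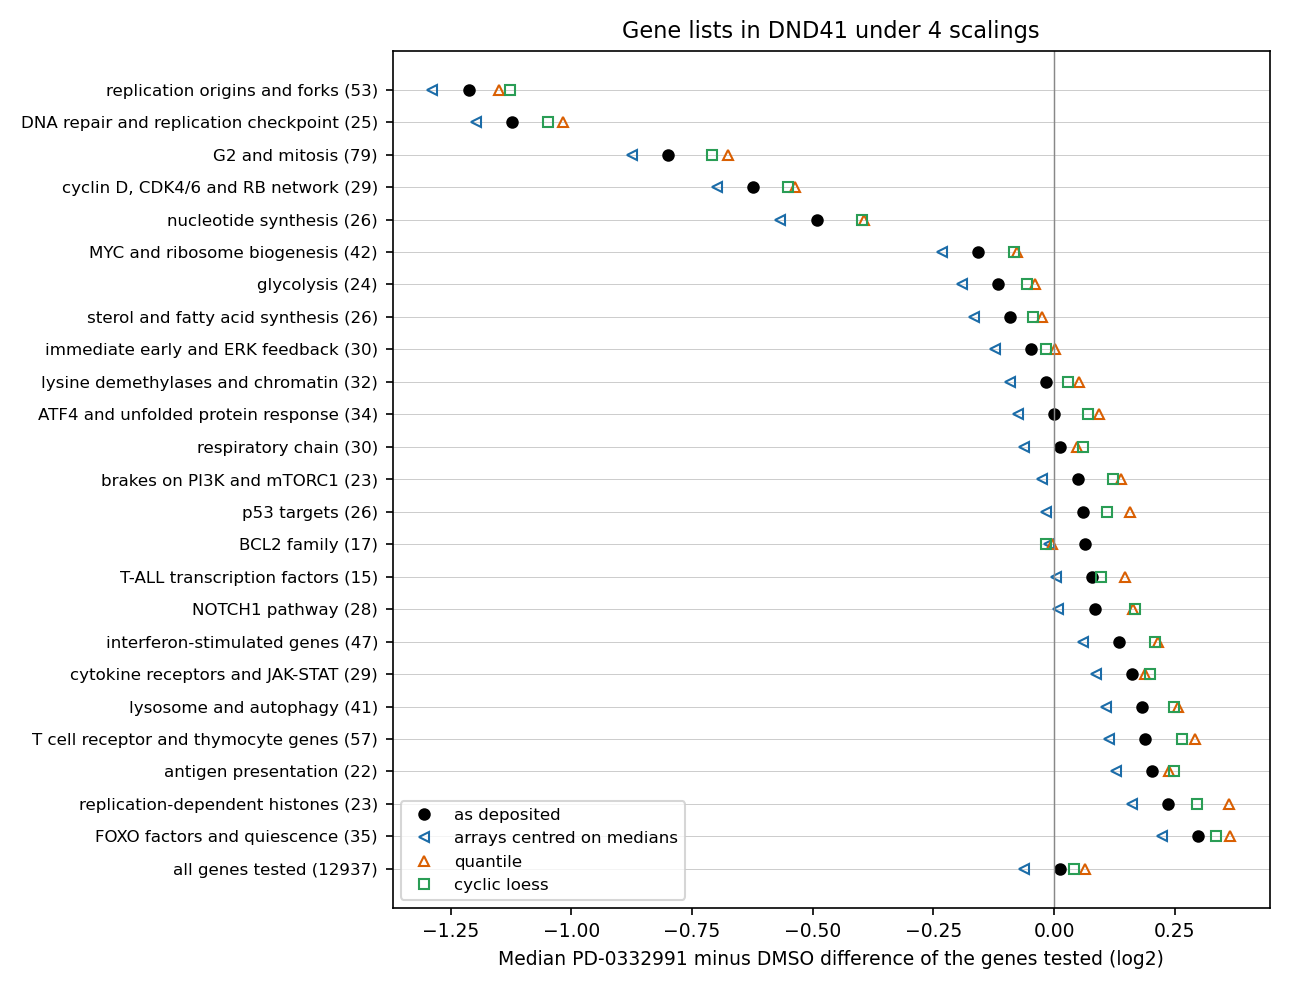
Median log2 difference (PD-0332991 minus DMSO) of the genes tested in each of 24 lists and in all 12937 genes, with the number tested in brackets. Filled circles are the values as deposited and open symbols 3 other scalings between arrays. The replication, repair, mitosis, RB and nucleotide lists lie at or below -0.39 in each scaling, and several lists near 0 change sign.

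Over all genes the change in DND41 resembled that in the other lines in part. The correlation of changes across 12937 genes, which are not independent replicates, was 0.660 with CUTL1, 0.543 with Jurkat and 0.486 with CEM. The difference of the DND41 change from the mean of the other lines was called for 2058 genes (15.9%), 652 higher and 1406 lower in DND41. This test uses the same DND41 arrays as the change within DND41, so the calls of both are not independent. Of the 301 genes that fell at least 2-fold, 69 fell less in DND41 than in the mean of the others, 78 more and 154 without a called difference. Among genes called in DND41 and for the difference in the same direction, 208 of 287 higher and 458 of 712 lower had the opposite sign in the mean of the other lines. In 11 genes the opposite change was called in each of the 3, and the pair given here was named after its values were seen. In 10 of the 11 the call within DND41 was lost without at least 1 array, while the difference was called without each. The 1 that rose in DND41 was IGFBP2, a binding protein of insulin-like growth factors, at 6847 and 6578 with DMSO and 7984 and 8168 with PD-0332991 (0.27 against -0.46), or 0.24 (adjusted p = 0.0833) without DMSO replicate 2. RAB27B, a GTPase of vesicle release, read 152 and 146 with DMSO and 90.3 and 88.2 with PD-0332991 (-0.74 against 0.55).

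The count of differences moved with single DND41 arrays. It was 470 without DMSO replicate 1, 547 without DMSO replicate 2 and 556 without PD-0332991 replicate 1, but 2676 without PD-0332991 replicate 2. Of the 1406 genes called lower than in the other lines, 1165 (82.9%) read lower in PD-0332991 replicate 1 than in replicate 2, against 53.7% of all genes tested, and the part of that gap in these calls was not tested.

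The 6 genes with the most negative difference were ACSL4, HEMGN, EGR1, HMGN5, VASH2 and MINDY2. ACSL4, which activates long polyunsaturated fatty acids, read 359.6 and 299.7 with DMSO and 55.3 and 151 with PD-0332991, lower in both treated arrays, which lay far apart. It fell by 1.85 (SE 0.48, adjusted p = 0.014) while its change was 0.82 in CEM, 0.21 in CUTL1 and 1.12 in Jurkat, a difference of -2.56 (SE 0.56, adjusted p = 0.0151). Without PD-0332991 replicate 1 the fall was -1.12 (adjusted p = 0.134), without DMSO replicate 1 -1.71 (adjusted p = 0.0775) and without DMSO replicate 2 -1.98 (adjusted p = 0.0502), none of them called, and the difference was -1.84 (adjusted p = 0.0746), -2.43 (adjusted p = 0.0713) and -2.69 (adjusted p = 0.0529). HMGN5, a nucleosome-binding protein, read 1034 and 896 with DMSO and 258 and 429 with PD-0332991 (-1.53, SE 0.23), a difference of -1.73 (SE 0.26, adjusted p = 0.00376). HEMGN, a nuclear protein of blood progenitors, read 92.3 and 85.4 with DMSO and 23.6 and 37.1 with PD-0332991 (-1.58, SE 0.24), a difference of -2.16 (SE 0.27, adjusted p = 0.00164). VASH2, a tubulin carboxypeptidase, read 182 and 179 with DMSO and 48.5 and 54.4 with PD-0332991 (-1.81, SE 0.21), and it fell in CUTL1 as well (-1.46), for a difference of -1.53 (SE 0.24, adjusted p = 0.00409). MINDY2, a deubiquitinase, fell by 0.94 (SE 0.25) with a difference of -1.53 (SE 0.29, adjusted p = 0.00914). MINDY2 stood at -0.50 (adjusted p = 0.147) without PD-0332991 replicate 1, -0.84 (adjusted p = 0.0936) without DMSO replicate 1 and -1.03 (adjusted p = 0.0502) without DMSO replicate 2, and its difference at -1.43 (adjusted p = 0.0547) without DMSO replicate 1.

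The 6 with the most positive difference were the histone genes H4C8, H2BC6, H2BC12L and H2BC5, with TMEM125 and ANKRD33B. TMEM125 read 28.4 and 24.3 with DMSO and 47.0 and 54.9 with PD-0332991, from control levels below 29.5, and rose by 0.95 (SE 0.23). It was not called without DMSO replicate 2 (0.84, adjusted p = 0.076) or PD-0332991 replicate 2 (0.84, adjusted p = 0.0513), and its difference of 1.17 (SE 0.27, adjusted p = 0.0183) stood at 1.29 (adjusted p = 0.0574) without DMSO replicate 1, 1.06 (adjusted p = 0.0836) without DMSO replicate 2 and 1.29 (adjusted p = 0.0524) without PD-0332991 replicate 1. ANKRD33B read 500.1 and 471 with DMSO and 995 and 661 with PD-0332991 and rose by 0.74 (SE 0.20), with a difference of 1.09 (SE 0.23, adjusted p = 0.0132). Without PD-0332991 replicate 1 its change was 0.45 (adjusted p = 0.142), without DMSO replicate 1 0.79 (adjusted p = 0.0549) and without DMSO replicate 2 0.70 (adjusted p = 0.083), and its difference 0.79 (adjusted p = 0.066), 1.13 (adjusted p = 0.0546) and 1.04 (adjusted p = 0.0601).

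**Figure D4:**
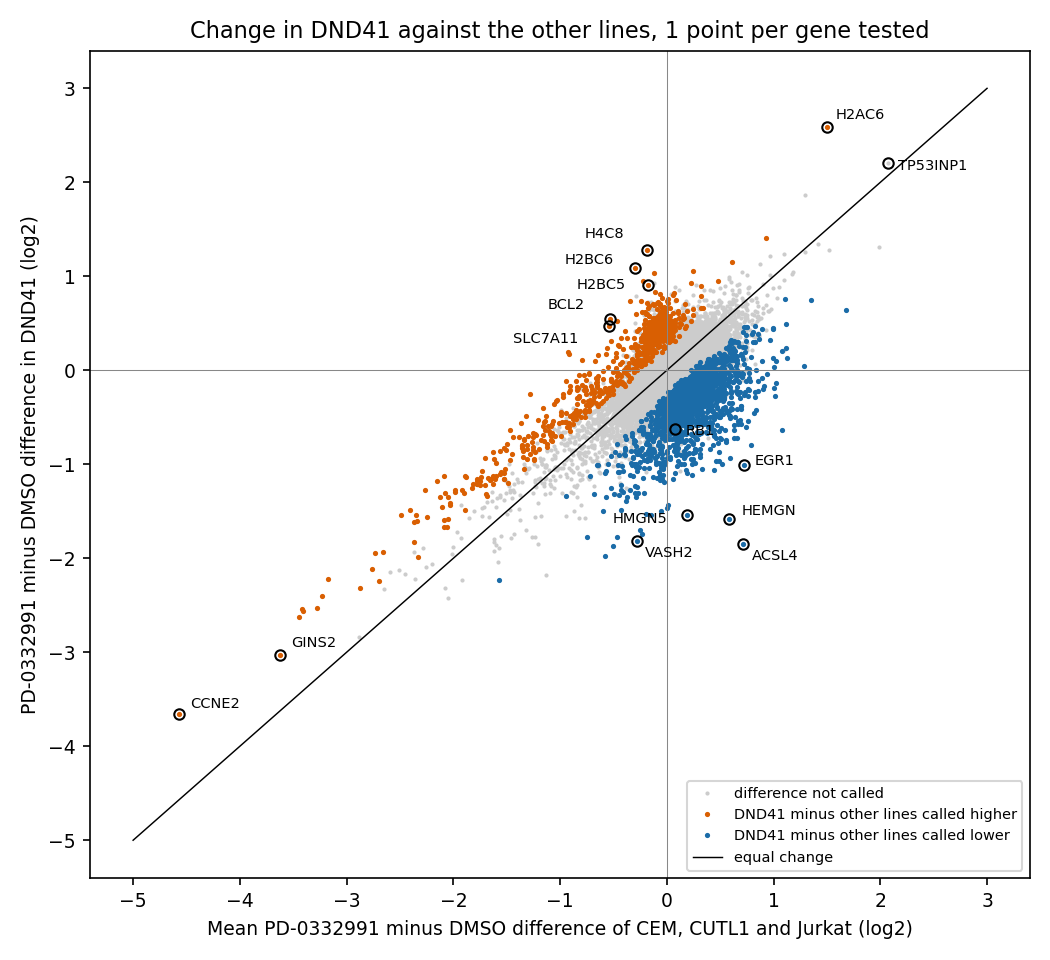
Log2 change (PD-0332991 minus DMSO) in DND41 (y axis) against the mean change of CEM, CUTL1 and Jurkat (x axis), 1 point for each of 12937 genes, with the line of equal change. Orange points had a difference called higher in DND41 (652 genes) and blue points lower (1406), and the deepest falls, CCNE2 and GINS2, lie above the line.

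**Figure D5:**
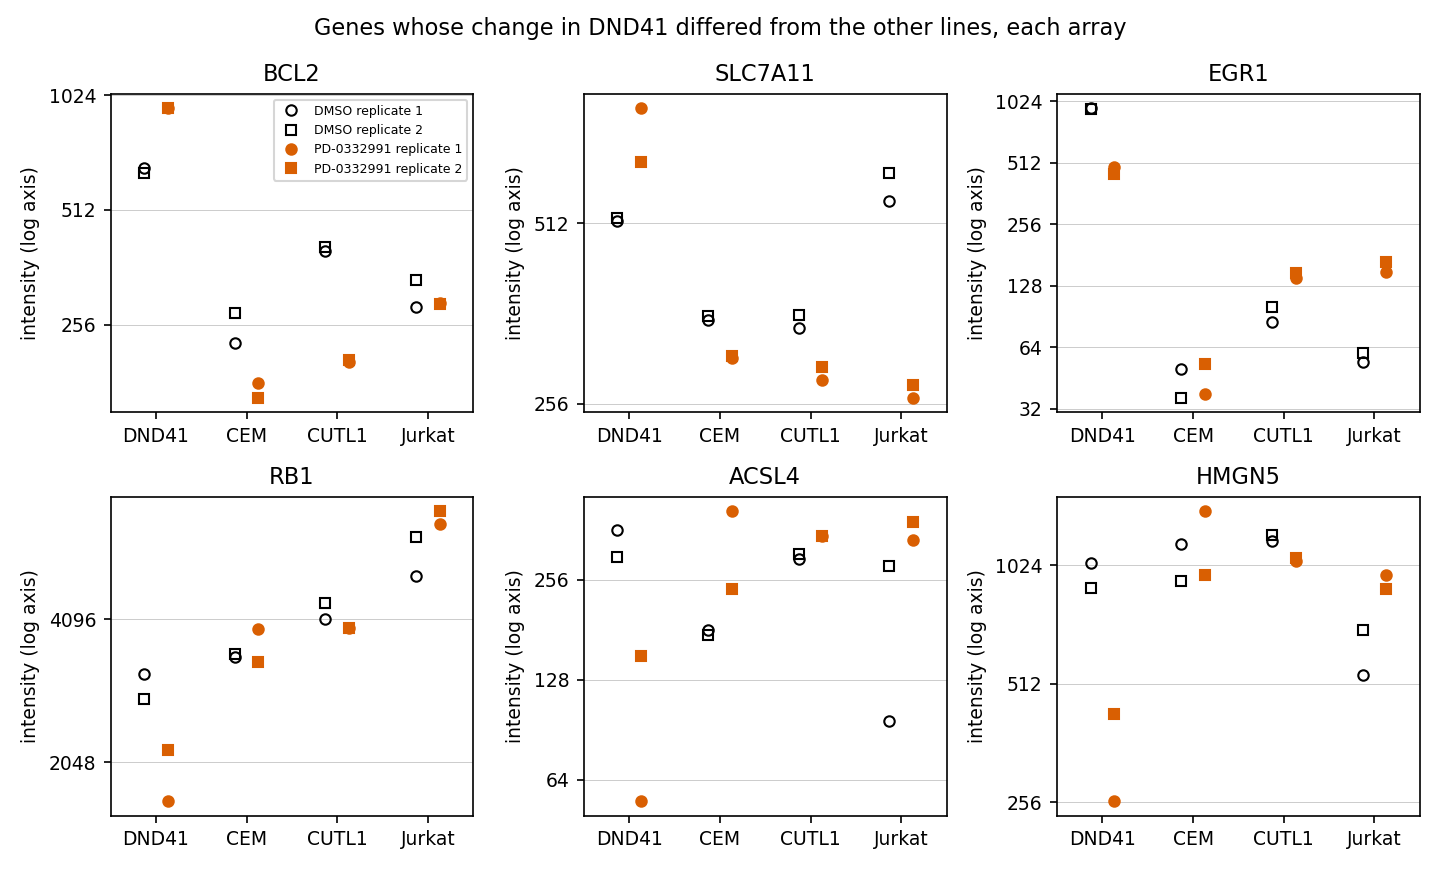
Intensity (log axis) of BCL2, SLC7A11, EGR1, RB1, ACSL4 and HMGN5 in every array of 4 lines. Open black symbols are DMSO and filled orange symbols PD-0332991 arrays, circles for replicate 1 and squares for replicate 2. BCL2 and SLC7A11 rise in DND41 and EGR1, RB1, ACSL4 and HMGN5 fall, with PD-0332991 replicate 1 the lowest array for RB1, ACSL4 and HMGN5.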

How the data were processed

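RNA was extracted with Qiagen RNeasy Plus, amplified from 5 ng with the Nugen Ovation kit and hybridised to 1-colour arrays, per the labels' protocols. The deposited intensity values are RMA output per the submitters' processing notes, with the version not given in the sources used here; RMA corrects background, normalizes between arrays and summarises probes. They were on a linear scale, where log2 had been assumed in planning, and log2 was taken here of these deposited intensities with no further scaling or pseudocount. Of 54675 probe sets, 41097 had 1 gene symbol, 1801 several and 11777 none in the platform annotation, and 41043 of the IDs were found in RefSeq.

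Each of 19775 genes was represented by its brightest probe set over all 16 arrays. For some named genes, INSR and BCL2L1 among them, another probe set above the dim level did not share the sign given. A gene was tested if the mean of either DND41 group reached the median of all deposited values (29.5), which left 12937 genes, and 6838 were dim. limma 3.58.1 (R 4.3.3) fitted 8 group means, 1 per line and treatment, to the 16 arrays, with Benjamini-Hochberg adjustment over all genes tested (two-sided). The difference from the other lines is the DND41 change minus the mean change of CEM, CUTL1 and Jurkat. It uses the same DND41 arrays. All results marked as called, and all adjusted p-values, are from limma.

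Genes named were the 14 largest rises and 14 largest falls called under 4 scalings whose PD-0332991 arrays lay outside the DMSO range. Also named were the 6 most positive and 6 most negative differences among genes also called in DND41, and a fixed set of pathway genes. From each list the 3 genes of lowest p were taken. Members called on a list's minority side were chosen where at most 5 were called there, and not all of these are described. Uncharacterised loci were passed over, and others are marked in the text. The members and lists were chosen with earlier results of these data known. Alternatives were median centring, quantile and cyclic loess scaling, the replicate block, array weights, the 4 DND41 arrays alone, other filters on dim genes, other choices of probe sets, a pseudocount of 16, and leaving out each DND41 array or each other line. Scripts were tested on simulated data. Promoters are from RefSeq (GRCh38.p14). Python 3.11.15 and matplotlib 3.10.9 were used for tables and figures.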

Additional observations from a re-analysis of the deposited data

Results flagged for a closer look

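The 12 genes below were taken up because the change in DND41 differed from the mean change of CEM, CUTL1 and Jurkat by limma's test of that difference, given as log2 units, and because they had the largest such differences. Toward higher values in DND41 they were H4C8 (1.46), H2BC6 (1.39), TMEM125 (1.17), H2BC12L (1.16), ANKRD33B (1.09) and H2BC5 (1.08). Of these, 4 are histone genes. Toward lower values they were ACSL4 (-2.56), HEMGN (-2.16), EGR1 (-1.73), HMGN5 (-1.73), VASH2 (-1.53) and MINDY2 (-1.53). The differences of H4C8, H2BC6, H2BC12L, H2BC5, HEMGN, EGR1, HMGN5 and VASH2 were called without each DND41 array in turn, and those of TMEM125, ANKRD33B, ACSL4 and MINDY2 were not. In these fits the DND41 group left with 1 array has no spread of its own, and the spread comes from the other groups.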

How the results depend on the processing

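The number of genes called in DND41 was 2038 with its 4 arrays fitted alone (674 higher, 1364 lower) and 2233 to 4091 without each array (748 to 1645 higher, 1426 to 2446 lower). Median centring left 936 higher. The difference from the other lines was called for 470 to 2676 genes without each array (194 to 896 higher, 251 to 1780 lower). It was called for 1208 without CEM (750 lower) and 1240 without Jurkat (406 higher, 834 lower), with 433 higher after centring and 830 and 847 lower after quantile and loess scaling. Deviations of same-numbered arrays correlated across genes at 0.07 in CEM, 0.19 in CUTL1, -0.12 in DND41 and 0.10 in Jurkat. With 2 arrays a group these values cannot decide whether replicate numbers pair the samples. The replicate block gave 3607 calls (1427 higher) and 1702 differences. The crossed pairing, added after the data were seen, gave 3820 calls and 1945 differences. Other settings kept the counts within 1.5 times. Signs turned for GINS2 (0.23), MCL1 (-0.14) and SDHC (-0.24) without _x_at and _s_at probe sets, which leaves another probe set for each, for PHLPP2 (0.056) with probe sets averaged and for MYB (-0.068) after centring. Without each array TLX3 ran from -0.41 to 0.069 and MYB from -0.10 to 0.12. The causes of the other moves were not tested.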
